A study of Mus musculus with 25 samples.

Results

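The Runx family and Cbfb are 4 genes, Runx1, Runx2, Runx3 and Cbfb, of the 22208 protein-coding genes examined for GATA1 and TAL1 binding in mouse erythroid cells. The rule took each entry of 6 lists of binding positions in the body of 1 of these genes or within 50 kb of it, so the entries were selected on the positions that ChIP-exo called, and their counts are given as a description with no test. At these genes there were 207 of the 166131 entries in all, and 34 of the 25499 final binding locations. In ChIP-exo an exonuclease trims the immunoprecipitated DNA up to the point of cross-linking, so that a bound position is read to within a few bases.

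The cells were G1E, an erythroid progenitor line of strain 129 that lacks GATA1, and G1E-ER4, the same cells with GATA1 restored as a fusion that estradiol activates. For GATA1 (antibody sc265) there was 1 G1E library, and G1E-ER4 cells gave 3 at 0 h of estradiol, 3 at 3 h and 3 at 24 h. For TAL1 (antibody sc12984) there were 4 G1E libraries, and G1E-ER4 cells gave 5, 3 and 3 at these times. Each list pools its factor's libraries, with no score, tag count, time or replicate, so nothing here separates the times or gives a spread between cultures, and depth is unknown from the lists. The labels link the G1E library of GATA1 to the GATA1 lists, whereas the study's text names G1E-ER4 cells only for them. Both are lines with an engineered Gata1 gene, GATA1 in G1E-ER4 cells is a fusion protein, and the lists hold no RNA level against which the erythroid label could be checked.

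For each factor there were 3 lists. Peak pairs are pairs of tag peaks on opposite strands (46666 for GATA1 and 63546 for TAL1). MultiGPS locations are binding events placed by a model of the tag distribution (12781 and 17639). Final locations are the MultiGPS locations with a peak pair within 100 bp (10290 and 15209). A GATA1 and a TAL1 location under 40 bp apart were called cooccupied, and neighbors of 1 factor under 500 bp apart formed a homotypic cluster.

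RUNX proteins are transcription factors with a Runt domain that binds DNA, and CBFB is the partner that does not itself contact DNA but strengthens this binding. RUNX1 is required for the formation of blood stem cells in the embryo and later acts in megakaryocytes, lymphocytes and myeloid cells, RUNX2 directs bone formation, and RUNX3 acts in T cells, sensory neurons and gut epithelium. Runx1 is transcribed from a distal and a proximal promoter, which differ in use between blood cell stages, and a blood stem cell enhancer is known in the long intron between them. GATA1 and TAL1 are the central transcription factors of red cell maturation. They bind side by side at WGATAA, which stands for AGATAA or TGATAA, often with TG, a partial E-box, 7 or 8 bases before it.

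The binding was concentrated at 1 of the 4 genes. Runx1 had 13 GATA1 and 19 TAL1 final locations, whereas Runx3 and Cbfb had 1 GATA1 location each and no TAL1 location, and Runx2 had none of either factor. Thus 3 of the 4 genes had a GATA1 location, beside 42.7% of all protein-coding genes, and 1 of 4 had a TAL1 location, beside 40.3%. A cooccupied location was present at 1 of 4, beside 23.6%. With 4 genes these shares say nothing particular about the family.

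The sequences of the bound stretches at Runx1 are shown first, because the arrangement of sites in them is what the counts below refer to. A bound stretch here is a run of final locations of either factor with neighbors under 500 bp apart. The 3 stretches with 3 or more TAL1 locations are given from the plus strand of mm9, 5′ to 3′, with 10 bases on either side of the outermost location shown, while Runx1 is on the minus strand. Capitals mark AGATAA or TGATAA and the RUNX site TGTGGT, on either strand. The first lies 3.78 kb downstream of the distal start (chr16:92822382-92822678), the second 24.3 kb downstream (chr16:92801844-92802126), and the third, of which the densest 257 bases are printed, 110.1 kb downstream (chr16:92715956-92716212).
Runx1 +3.78 kb: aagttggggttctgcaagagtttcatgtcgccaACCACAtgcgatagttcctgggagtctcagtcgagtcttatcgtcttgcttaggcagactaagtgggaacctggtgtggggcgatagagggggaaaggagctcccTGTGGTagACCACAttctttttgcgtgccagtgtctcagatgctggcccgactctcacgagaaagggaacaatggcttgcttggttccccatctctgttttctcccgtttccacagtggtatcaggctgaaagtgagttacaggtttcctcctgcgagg
Runx1 +24.3 kb: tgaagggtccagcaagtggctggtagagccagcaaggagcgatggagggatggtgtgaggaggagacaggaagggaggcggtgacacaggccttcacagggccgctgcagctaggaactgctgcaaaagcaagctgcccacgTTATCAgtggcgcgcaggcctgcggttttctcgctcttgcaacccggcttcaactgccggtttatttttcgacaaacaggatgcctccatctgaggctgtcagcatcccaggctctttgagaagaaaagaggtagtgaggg
Runx1 +110.1 kb: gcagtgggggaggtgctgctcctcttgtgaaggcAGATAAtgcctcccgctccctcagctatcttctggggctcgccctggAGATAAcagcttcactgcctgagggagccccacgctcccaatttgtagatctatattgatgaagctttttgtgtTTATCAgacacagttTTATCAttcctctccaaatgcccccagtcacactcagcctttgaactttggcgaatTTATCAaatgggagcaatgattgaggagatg
The first sequence has 3 RUNX sites and no GATA site, and 2 of its RUNX sites face each other with 2 bases between them. The second has 1 GATA site and no RUNX site, and the third has 5 GATA sites and no RUNX site.

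Shorter sequences of 46 bases show the GATA site closest to other bound positions, read 5′ to 3′ on the strand of the site, with the site and, where present, the TG 7 or 8 bases before it in capitals. They are the site at the edge of the stretch near the distal start (chr16:92822670-92822715, plus strand), the cooccupied positions 61.1 kb downstream (chr16:92765145-92765190, plus strand) and 48.1 kb upstream (chr16:92874436-92874481, plus strand), and the only Runx3 location (chr4:134762291-134762336, plus strand).
Runx1 +3.65 kb: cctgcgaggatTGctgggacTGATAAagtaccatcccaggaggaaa
Runx1 +61.1 kb: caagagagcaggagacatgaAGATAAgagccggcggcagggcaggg
Runx1 -48.1 kb: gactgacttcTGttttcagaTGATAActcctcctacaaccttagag
Runx3: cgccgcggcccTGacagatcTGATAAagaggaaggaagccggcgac
The site at +61.1 kb has no TG at either spacing, and the other 3 have it.

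Bound positions with neither AGATAA nor TGATAA within 40 bp are shown for contrast, in lower case throughout and from the plus strand. They are the cooccupied GATA1 location 113.5 kb downstream of the distal start (chr16:92712775-92712820), the GATA1 location closest to the proximal start (chr16:92691154-92691199), the TAL1 location closest to the distal start (chr16:92823181-92823226) and the only Cbfb location (chr8:107695145-107695190).
Runx1 +113.5 kb: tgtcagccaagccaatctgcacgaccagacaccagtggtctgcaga
Runx1 +135.1 kb: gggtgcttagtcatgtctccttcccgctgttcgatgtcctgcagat
Runx1 +3.11 kb: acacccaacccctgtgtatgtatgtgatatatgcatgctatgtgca
Cbfb: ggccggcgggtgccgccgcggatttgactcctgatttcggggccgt

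Runx1 (ENSMUSG00000022952.9) runs from chr16:92601712-92826311 on the minus strand of mm9, and its body of 224.6 kb gives a window of 324.6 kb. In this window GATA1 had 55 peak pairs, 16 MultiGPS and 13 final locations. TAL1 had 67 peak pairs, 19 MultiGPS and 19 final locations. The median over all protein-coding genes was 0 final locations for each factor, and the 90th percentile was 3 for GATA1 and 5 for TAL1. Of the 22208 genes, 25 had more GATA1 locations than Runx1 and 77 had more TAL1 locations.
The rank was lower by density. Per 100 kb of window Runx1 had 4.00 GATA1 and 5.85 TAL1 locations, and 789 and 1182 genes had a higher density.

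**Figure D1:**
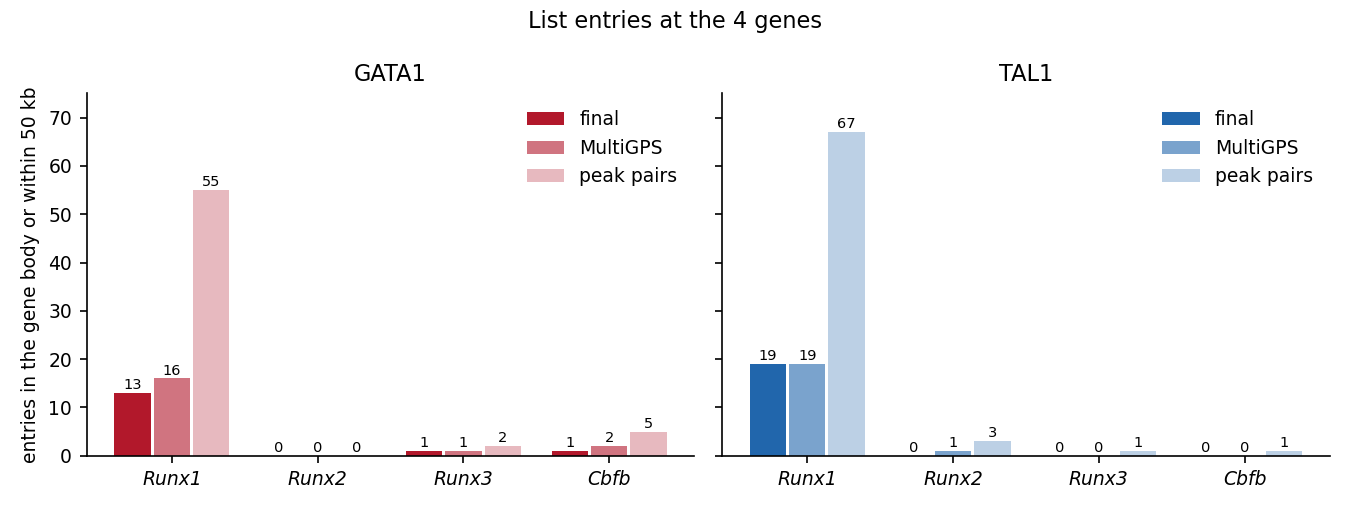
Number of list entries (vertical axis) in the gene body or within 50 kb of Runx1, Runx2, Runx3 and Cbfb, for GATA1 on the left and TAL1 on the right. Each bar is 1 list, with its count above it, and Runx1 stands above the other 3 genes in all 6 lists, from 13 entries in the GATA1 final list to 67 TAL1 peak pairs.

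Most final locations in the Runx1 window lay between its promoters. The distal start of the annotation is at 92826311 and the proximal start at 92697573, 128.7 kb downstream, and the stretch between them is 39.7% of the window. Of the 13 GATA1 locations 11 were between the starts (84.6%, exact binomial 95% interval 54.6 to 98.1%), and of the 19 TAL1 locations 18 were (94.7%, 74.0 to 99.9%). These intervals cover counting error only, and they treat neighbors as independent, which they are not. The shares also depend on the window. By closest start site Runx1 had 5 more GATA1 and 19 more TAL1 locations. All of these lay upstream, beyond the window, and are not counted in the shares.
Peak pairs, which include positions that MultiGPS did not call, were placed in the same way. Of 55 GATA1 pairs 43 lay between the starts (78.2%), and of 67 TAL1 pairs 57 did (85.1%).

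All of the 11 GATA1 and 18 TAL1 locations between the starts were in intron 2 of the full-length transcript, which is 129.9 kb long and also contains the proximal start. Intron 3, of 6.35 kb, had 1 GATA1 location. Introns 1, 4, 5, 6 and 7 had no final location of either factor, although they span 0.229, 20.2, 24.4, 30.4 and 7.47 kb. No final location, MultiGPS location or peak pair of either factor fell in a Runx1 exon.
Thus the part of the gene downstream of the proximal promoter, which holds the exons shared by both forms of the protein, had 1 GATA1 and no TAL1 final location. It had 3 GATA1 and 2 TAL1 peak pairs.

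**Figure D2:**
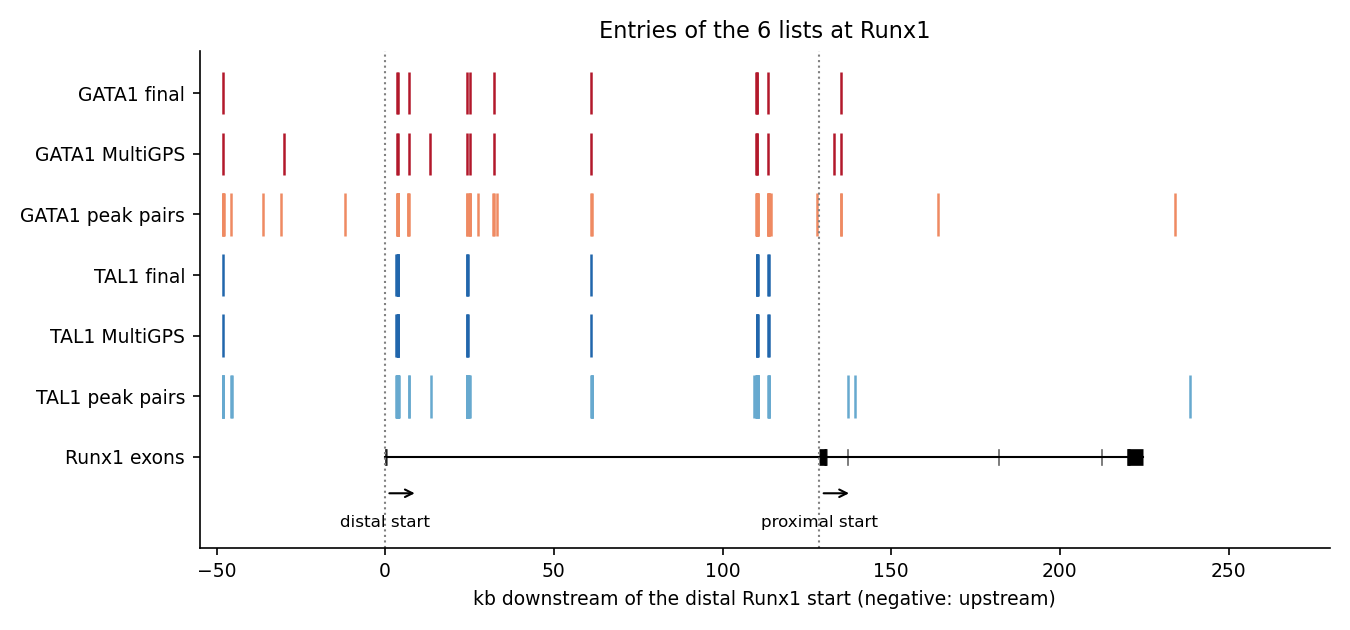
Positions of the entries of the 6 lists at Runx1, in kb downstream of the distal start, with the exons of all Runx1 transcripts as black blocks and dotted lines at the distal and proximal starts. Final locations of both factors gather between the starts, with 11 of 13 GATA1 and 18 of 19 TAL1 locations there, and the body beyond the proximal start is nearly empty.

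Neither promoter had a final location close to its start. None of the 13 GATA1 or 19 TAL1 locations lay within 1 kb of a start site (exact upper limits 24.7 and 17.6%), beside 10.4% of all GATA1 and 7.46% of all TAL1 locations. The location closest to the distal start was the TAL1 location at 92823201, 3.11 kb downstream of it. The location closest to the proximal start was the GATA1 location at 92691174, 6.40 kb downstream of that start and 4721 bp from the nearest annotated start of a shorter transcript. A GATA1 peak pair that MultiGPS did not call lay nearer, at -0.856 kb from the proximal start.

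The 32 final locations formed 11 bound stretches, of which 6 had both factors, 4 had GATA1 only and 1 had TAL1 only. Over the genome there were 12937 such stretches, and 37.5% had both factors, 35.8% GATA1 only and 26.7% TAL1 only. Of the 11 at Runx1, 9 were between the promoters.

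The stretch with the most TAL1 locations at these genes lay near the distal promoter, with a single TAL1 location between it and that promoter. It ran from 92822392 to 92822668, centred 3.78 kb downstream of the distal start, with TAL1 at 92822392, 92822477, 92822539, 92822541, 92822581 and 92822668 and GATA1 at 92822467 and 92822663. Both GATA1 locations were cooccupied, with TAL1 locations 10 and 5 bp away. Within 100 bp of the stretch there were 8 GATA1 and 13 TAL1 peak pairs.
The TAL1 locations at 92822539 and 92822541 were 2 bp apart and had the same closest peak pair, at 92822531. Counted as 1 location, they would leave this stretch level in TAL1 with the one at 110.1 kb. Of the 2906 TAL1 clusters of the genome, 337 had 6 or more locations and 201 had more than 6, and the median had 3. The GATA site of this stretch, AGATAA or TGATAA, was a single TGATAA with TG 7 bases before it. This site lay 24.5 bp from the last TAL1 location and 29.5 bp from the closest GATA1 location. The other GATA1 location, at 92822467, had none within 40 bp and had 3 RUNX sites within 100 bp. Over the genome 0.272% of all GATA1 locations and 0.230% of all TAL1 locations had 3 or more RUNX sites within 100 bp. The limit of 3 is the count at the location at 92822467 itself, so these shares are a description only.

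The stretch with the most GATA1 locations lay 110.1 kb downstream of the distal start, 18.6 kb upstream of the proximal one. It ran from 92715913 to 92716411, with GATA1 at 92716037, 92716164 and 92716411 and TAL1 at 92715913, 92715966, 92716067, 92716136 and 92716202. There were 11 GATA1 and 15 TAL1 peak pairs within 100 bp of it. The 5 TAL1 locations were 53, 101, 69 and 66 bp apart in order, and 2 of the 3 GATA1 locations were cooccupied.
This stretch was rich in GATA sites. Its 579 bases, 40 beyond either end, had 7 of AGATAA or TGATAA, and 3 of these had TG at 7 or 8 bases. All 3 GATA1 locations had a site within 40 bp, at 2.5, 20.5 and 1.5 bp, and so did 4 of the 5 TAL1 locations. The third GATA1 location, at 92716411, lay 209 bp from the closest TAL1 location.

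Stretches so dense in both factors made up a small part of the genome. There were 31 with 3 or more GATA1 and 5 or more TAL1 locations (0.240% of 12937), and 156 with 2 or more GATA1 and 5 or more TAL1 (1.21%). Runx1 held 1 of the former and 2 of the latter. The limits lie at or just below the counts of these Runx1 stretches themselves, so that Runx1 meets them is a description only.

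The stretch 24.3 kb downstream of the distal start had 1 GATA1 location, at 92801981, and TAL1 at 92801854, 92801991 and 92802116. The TAL1 location in the middle was 10 bp from the GATA1 location, and the outer TAL1 locations were 127 and 135 bp from it. The only GATA site was TGATAA, on the minus strand with TG 8 bases before it, 7.5 bp from GATA1 and 2.5 bp from the middle TAL1 location. There were 2 GATA1 and 10 TAL1 peak pairs.
A further GATA1 location stood 714 bp away, at 92801267, with 2 GATA sites within 40 bp, no TG at either spacing, and the closest TAL1 location 587 bp off. GATA1 locations with and without a TAL1 final location beside them thus lay within 1 kb of each other.

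**Figure D3:**
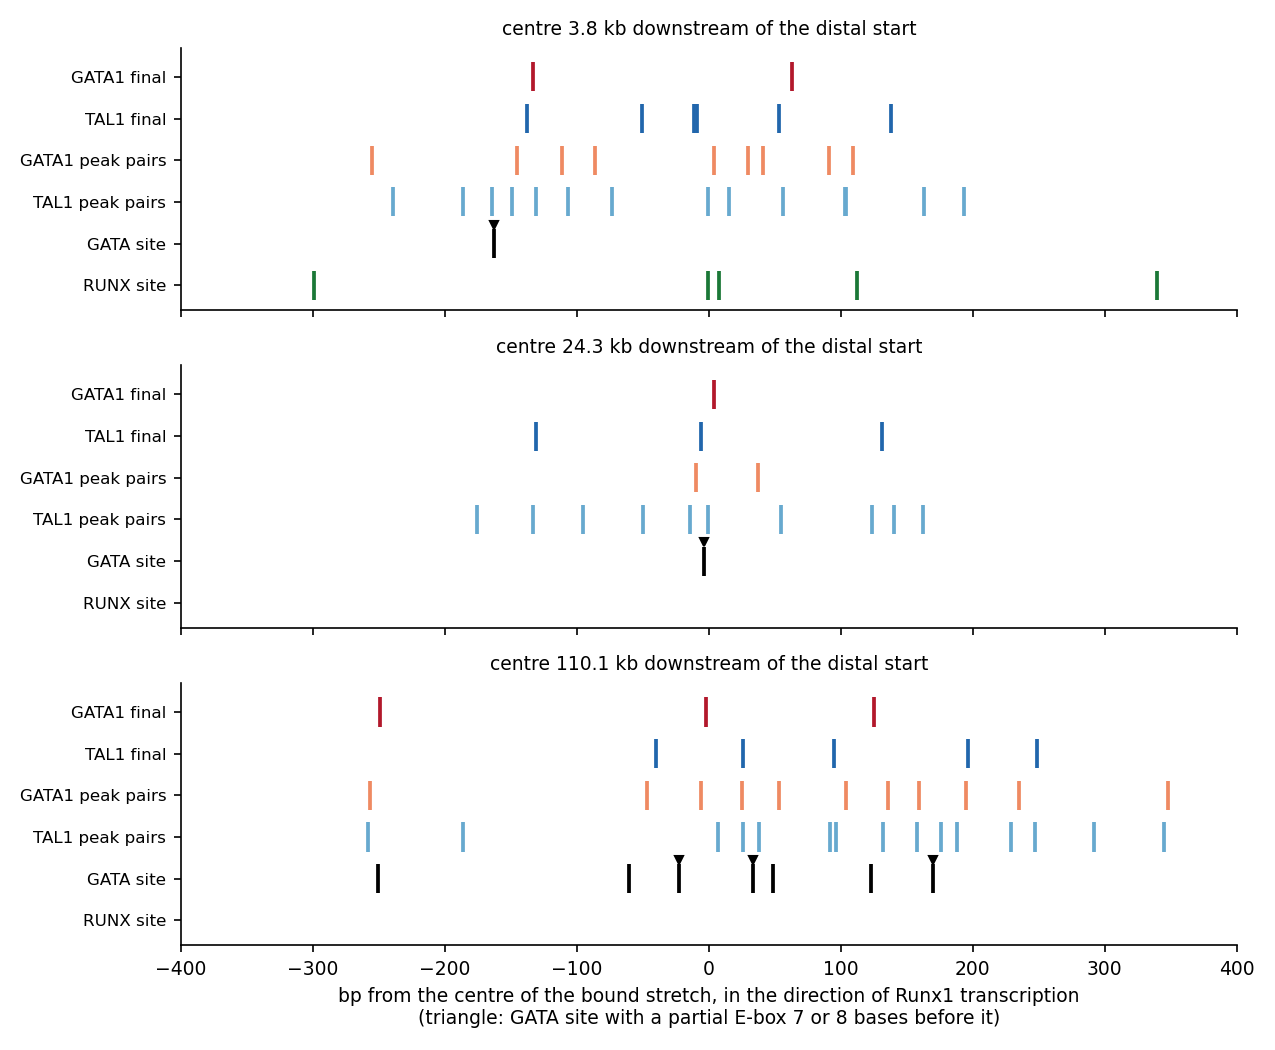
The 3 Runx1 stretches with 3 or more TAL1 locations, each as bp from its centre in the direction of transcription, with ticks for final locations, peak pairs, GATA sites (AGATAA or TGATAA) and RUNX sites (TGTGGT), and a triangle where TG stands 7 or 8 bases before the GATA site. The top stretch has 6 TAL1 locations and 1 GATA site at its edge, the middle has 3 TAL1 locations around 1 site, and the bottom has 5 TAL1 and 3 GATA1 locations over 7 sites.

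In the 3 other stretches with both factors, GATA1 and TAL1 were placed as follows. At 113.5 kb downstream of the distal start, GATA1 at 92712795 and TAL1 at 92712789 were 6 bp apart, with no GATA site within 40 bp, and a second TAL1 location lay at 92712467. This stretch held 1 GATA site with TG, but not within 40 bp of any of these locations. At 61.1 kb, GATA1 at 92765162 and TAL1 at 92765182 were 20 bp apart over 1 AGATAA site with no TG at either spacing. At 48.1 kb upstream, GATA1 at 92874398 and TAL1 at 92874437 were 39 bp apart, just under the limit of 40 bp, and TGATAA with TG 8 bases before it was 21.5 bp from TAL1. The GATA1 location there had no GATA site within 40 bp.
Cooccupancy at Runx1 therefore occurred with a site and TG, with a site without TG, and with no site of this spelling within 40 bp of either location.

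Single locations made up the other 5 stretches. GATA1 was alone at 92691174, 92794173, 92801267 and 92819343, and of these 92801267 had a GATA site within 40 bp and the other 3 had none. The closest TAL1 locations were 21293, 7681, 587 and 3049 bp away. A TAL1 peak pair that MultiGPS did not call lay 12 bp from the GATA1 location at 92819343 and 62 bp from the one at 92801267, so that solitary GATA1 in the final lists was not always without TAL1 signal. TAL1 was alone at 92823201, 538 bp from the closest GATA1 location.

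Over all of its locations, the shares of Runx1 for cooccupancy and clustering were above those of the genome, with wide intervals and no test. Of the GATA1 locations 8 of 13 were cooccupied (61.5%, 31.6 to 86.1%), beside 35.9% of all. Of the TAL1 locations 9 of 19 were (47.4%, 24.4 to 71.1%), beside 27.5%. Both genome shares lie within the intervals at Runx1. In homotypic clusters were 5 of 13 GATA1 locations (38.5%, 13.9 to 68.4%), beside 13.7%, and 16 of 19 TAL1 locations (84.2%, 60.4 to 96.6%), beside 64.4%. The genome share of clustered GATA1 locations lies just below the interval at Runx1, and that of TAL1 within it.
The TAL1 locations of Runx1 were also closer together, with a median of 85 bp to the next TAL1 location, beside 133 bp over the genome.

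The shares with a GATA site were below those of the genome, which lie within the intervals. AGATAA or TGATAA lay within 40 bp of 7 of 13 GATA1 locations (53.8%, 25.1 to 80.8%), beside 67.7% of all GATA1 locations and 8.57% of positions moved by 1 kb. For TAL1 it was 8 of 19 (42.1%, 20.3 to 66.5%), beside 47.2% and 8.61%. TG stood 7 or 8 bases before the closest site at 3 of 13 GATA1 and 6 of 19 TAL1 locations (23.1 and 31.6%), beside 19.1 and 23.9% of all. With AGATAG and TGATAG counted as well, 9 of 13 GATA1 locations (69.2%) had a match within 40 bp, beside 81.2% of all. For TAL1 this wider spelling gave 8 of 19 (42.1%), beside 57.9%.
Of the 9 cooccupied TAL1 locations 7 had a GATA site within 40 bp (77.8%, 39.99 to 97.2%), and of the 10 others 1 had (0.253 to 44.5%). Over the genome 70.7% of cooccupied and 38.2% of other TAL1 locations had one, and both shares lie within these intervals. The general E-box CANNTG, the kind of site that TAL1 with its E-protein partner contacts, was within 40 bp of 3 of these 9 (7.49 to 70.1%) and of 7 of the 10 others (34.8 to 93.3%). Over the genome it was near 47.6% of cooccupied and 46.4% of other TAL1 locations, again within both intervals, and 36.4% of moved positions.

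The RUNX site TGTGGT lay within 100 bp of 4 of 13 GATA1 and 7 of 19 TAL1 locations (30.8%, 9.09 to 61.4%, and 36.8%, 16.3 to 61.6%), beside 22.5 and 22.7% of all and 15.6% of moved positions for both factors. The Runx1 locations moved by 1 kb had it at 2 of 13 and 4 of 19 (15.4 and 21.1%). Of these 7 TAL1 locations, 5 share the stretch at 3.78 kb and so count some of the same sites. The ETS strings AGGAAG or CGGAAG, sites of factors such as FLI1 and ERG, were within 100 bp of 6 of 13 GATA1 and 5 of 19 TAL1 locations (46.2 and 26.3%), beside 33.3 and 33.0% of all and 26.0 and 26.7% of moved positions. The Runx1 locations moved by 1 kb had such a string as often or more often, at 6 of 13 and 6 of 19 (46.2 and 31.6%). A match of letters does not show that a factor was bound there.

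**Figure D4:**
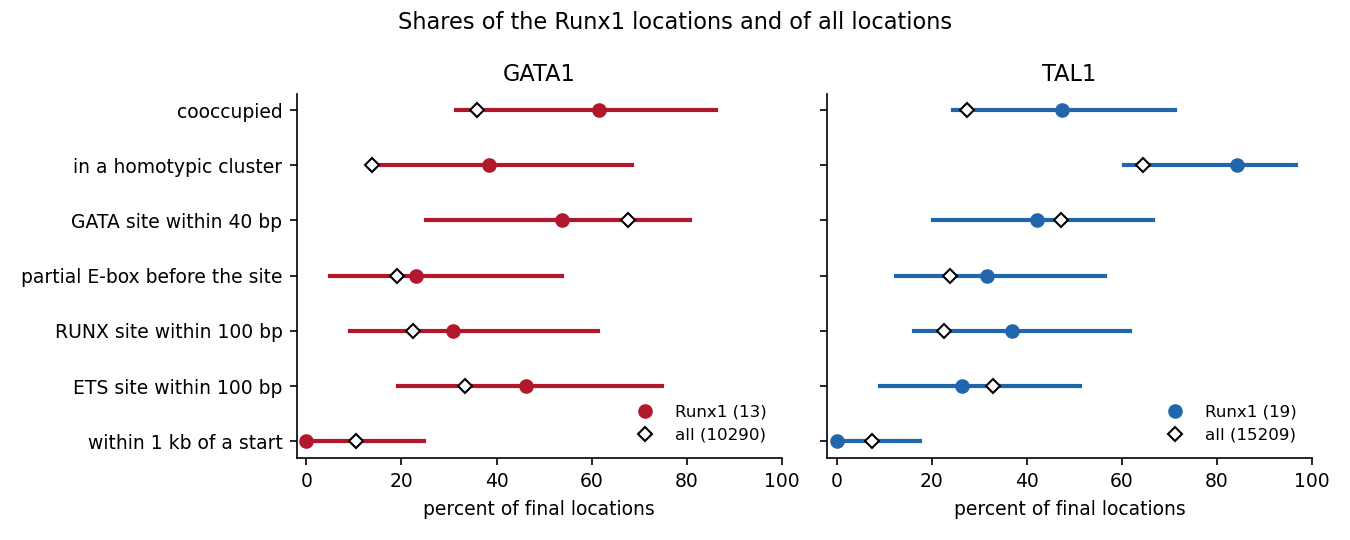
Percent of final locations with each property, for GATA1 on the left and TAL1 on the right, with filled circles and bars for the Runx1 locations and their exact binomial 95% intervals and open diamonds for all locations of the factor. The genome shares fall inside or at the edge of the wide Runx1 intervals, and the circles for cooccupancy (61.5 and 47.4%) lie to the right of the diamonds (35.9 and 27.5%).

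The calls of the 2 methods overlapped in part at Runx1. Of 16 GATA1 MultiGPS locations 3 had no peak pair within 100 bp (18.8%, beside 19.5% of all), at 92693206, 92812882 and 92856441. All 19 TAL1 MultiGPS locations had one, beside 13.8% of all that had none. A final GATA1 location had a median of 2 peak pairs within 100 bp at Runx1 and over the genome, and a final TAL1 location a median of 5 at Runx1 and 3 over the genome. Of the peak pairs at Runx1, 23 of 55 for GATA1 (41.8%) and 21 of 67 for TAL1 (31.3%) had no MultiGPS location within 100 bp, beside 53.9 and 49.9% of all pairs.

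The window ended inside a longer run of binding upstream of Runx1. The outermost locations inside it were 48087 bp (GATA1) and 48126 bp (TAL1) from the gene body, and the nearest outside were 57872 and 57679 bp from it. When each location was given to its closest protein-coding start, Runx1 had 18 GATA1 and 38 TAL1 locations, and 3 and 1 genes had more.
The 5 GATA1 and 19 TAL1 locations beyond the window were all upstream. GATA1 at 92884183, at -57.9 kb from the distal start, had 4 TAL1 locations around it, the closest 7 bp away. GATA1 at 93129935, at -303.6 kb, had 5 TAL1 locations, and GATA1 at 93147967, at -321.7 kb, had 7, with the closest 1 bp away. At -326.8 and -371.5 kb a GATA1 and a TAL1 location were 10 and 7 bp apart, and a lone TAL1 location lay at -101.1 kb. Which gene such distant binding acts on cannot be read from distance.

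The rest of the family differed from Runx1 in having next to no binding. Runx2 (ENSMUSG00000039153.9, chr17:44632936-44951746, minus strand), the longest of the 4 genes with a body of 318.8 kb, had no GATA1 entry in any list. Its TAL1 entries were 1 MultiGPS location at 44809393, in an intron and without a peak pair within 100 bp, and 3 peak pairs, at 44744813 in an exon and at 44818617 and 44829054 in introns. The nearest final locations were 767575 bp (GATA1) and 689013 bp (TAL1) from the gene. Supt3h, whose body overlaps the 5′ end of Runx2, had no final location in its body.

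Runx3 (ENSMUSG00000070691.4, chr4:134676567-134733905, plus strand) had 1 GATA1 location, at 134762312, which is 28407 bp beyond its end and 85.7 kb from its start. TGATAA was 1.5 bp from this location, with TG 7 bases before it, and 2 GATA1 peak pairs lay within 100 bp. No TAL1 location was nearer than 32723 bp. In the body of Runx3 itself the lists had a single entry, a TAL1 peak pair at 134701527, in an intron.
The site thus had the spelling and spacing of the joint GATA1 and TAL1 motif while only GATA1 was called there. This was not rare. Over the genome 12.0% of GATA1 locations that were not cooccupied had TG 7 or 8 bases before their closest site, beside 31.7% of cooccupied ones. Clic4, a gene for a chloride intracellular channel protein whose body reaches into the Runx3 window, had 1 GATA1 and 4 TAL1 final locations in its body, all outside that window, the nearest 61130 bp from Runx3. The body of Clic4 (chr4:134769884-134828729, minus strand) was nearer to the GATA1 location at 134762312 than that of Runx3. This location also counts among those within 50 kb of Clic4, although its closest start, 53901 bp away, was that of Runx3.

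Cbfb (ENSMUSG00000031885.7, chr8:107694574-107741886, plus strand) had 1 GATA1 location, at 107695165, in an intron 591 bp downstream of its start. It was the only final location at the 4 genes that lay within 1 kb of the start of its gene. The 81 bases around it had a GC content of 75.3%, with neither AGATAA nor TGATAA, no E-box, no RUNX site and no ETS string. It was supported by 1 peak pair, 36 bp away, and a second MultiGPS location at 107695750 had none within 100 bp.
The other 4 GATA1 peak pairs and the 1 TAL1 peak pair of the window were not called by MultiGPS. The closest TAL1 final location was 152105 bp away, and no final location was in the bodies of the neighbors B3gnt9-ps, Ces4a, D230025D16Rik, Fbxl8 and Tradd. The gene of the shared partner subunit thus had 1 promoter-proximal GATA1 location, with 1 peak pair within 100 bp, and no TAL1 location. More than 1 such pair lay at 59.9% of all GATA1 locations and at 8 of the 13 at Runx1, so support by 1 pair was not rare.

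Related genes were counted in the same way. Their lists are short and were chosen with earlier results of these data known, so their shares are a description with no test. Of 15 genes for corepressors and coactivators of RUNX proteins, 10 had a GATA1, 8 a TAL1 and 7 a cooccupied location (66.7, 53.3 and 46.7%), beside 42.7, 40.3 and 23.6% of all genes. Cbfa2t3, which encodes a corepressor of the ETO family, had 9 GATA1 and 48 TAL1 locations. Hipk2, for a kinase that phosphorylates RUNX1, had 19 and 31, and Cbfa2t2, for another ETO family corepressor, had 3 and 7.
Cbfa2t3 held more TAL1 locations than Runx1 in a window of 170.4 kb, at 28.2 per 100 kb.

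All 6 genes for blood stem cell factors that bind beside RUNX1 (Gata2, Tal1, Lyl1, Lmo2, Fli1 and Erg) had a GATA1, a TAL1 and a cooccupied location. Of all protein-coding genes, 42.7% had a GATA1, 40.3% a TAL1 and 23.6% a cooccupied location. Tal1 itself had 6 GATA1 and 19 TAL1 locations, Lyl1, its close relative, had 5 and 17, and Erg, of the ETS family, had 9 and 15. Of 13 genes known as RUNX1 targets in blood cells, 10 had a GATA1, 10 a TAL1 and 8 a cooccupied location. These shares of 76.9, 76.9 and 61.5% stand beside 42.7, 40.3 and 23.6% of all genes. Gfi1b, for a repressor needed in red cell and platelet formation, had 6 and 18, Nfe2, for a subunit of the platelet and globin regulator NF-E2, had 4 and 12, and Mpo, for the myeloperoxidase of granulocytes, had 5 and 9.
Many of these genes are active in erythroid or related cells, and the lists do not tell whether their place in the RUNX1 network or their expression goes with the counts. Of 13 genes near the Runx genes and Cbfb on their chromosomes, 9 had a GATA1, 8 a TAL1 and 5 a cooccupied location. Here the shares were 69.2, 61.5 and 38.5%, beside 42.7, 40.3 and 23.6% of all genes. Clic6 and Rcan1, which follow Runx1 on chromosome 16, had 3 GATA1 and 16 TAL1 locations each, in windows that overlap, and Clic4 had 4 and 8.

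The genes whose 6 list counts were most like those of Runx1, by Euclidean distance of log2(count + 1) over the 6 lists, were Rbm20 (0.273), Sema4b (0.320), Ddc (0.387), Kalrn (0.402) and Mbnl1 (0.490). They had 12 to 15 GATA1 and 18 to 19 TAL1 final locations. Their cooccupied GATA1 locations numbered 4, 6, 4, 5 and 4, beside 8 at Runx1. Their windows ran from 139.6 kb at Sema4b to 699.3 kb at Kalrn, so that Sema4b had 12.9 TAL1 locations per 100 kb and Kalrn 2.72, beside 5.85 at Runx1.

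**Figure D5:**
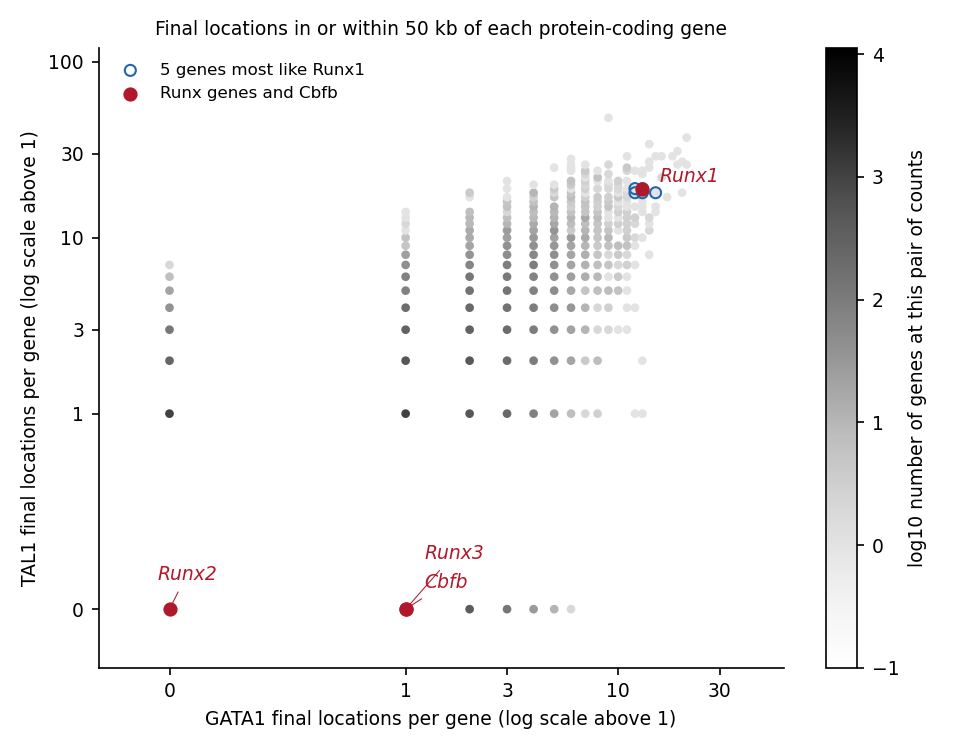
Number of GATA1 (horizontal) and TAL1 (vertical) final locations in or within 50 kb of each protein-coding gene, on log scales above 1, with darker grey for more genes at a point, red for the 4 genes and blue rings for the 5 genes most like Runx1. Runx1 lies at 13 and 19, near the upper right, while Runx3 and Cbfb share the point at 1 and 0 and Runx2 lies at 0 and 0.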

How the data were processed

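The authors deposited 6 lists of positions, each a single base in mm9 with no score, count or unit of signal. Per the labels, base calls were made with CASAVA 1.7 and bcl2fastq 2.15, and the aligners were BWA (0.6.2, 0.7.9a) and Bowtie (1.00). By the study's methods uniquely mapped reads were kept, replicates were merged before peak pairing, and both callers left out blacklisted regions and required signal above input. Merging hides the variation between replicates, which the lists therefore do not show, and unique mapping leaves repeats without calls.

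On the 20 chromosomes listed, 0 positions lay beyond the chromosome ends of the mm9 reference. Genes were the longest protein-coding entry per name of GENCODE vM1, with 45971 start sites. Windows were the union of a gene's transcripts with 50 kb on either side. Sites were exact strings on either strand whose middle lay within 40 bp (GATA site, E-box) or 100 bp (RUNX and ETS sites) of a position, and the same positions moved by 1 kb gave the background. No test was made, and shares have exact (Clopper-Pearson) binomial intervals at 95%, which cover counting error only. The members and lists were chosen with earlier results of these data known. Named genes are the members, genes whose body meets a member window, the 3 genes per list with the most final locations and the 5 genes most like Runx1, leaving out those within 100 kb of it. Kat6a, Kmt2a, Gfi1, Spi1 and Supt3 were not matched by name and are not counted in the lists of related genes. Supt3h is described only as a gene that overlaps Runx2. Promoter tables of another build were not used here. The counting was tested on simulated positions and sequences with known answers. The genome was indexed with samtools 1.23.1 and read with pysam 0.24.0, intervals came from scipy 1.17.1, and matplotlib 3.10.9 drew the plots, under Python 3.11.15.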

Additional observations from a re-analysis of the deposited data

How the results depend on the processing

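Of 72 alternative values, 55 stayed within 1.5 times the count, or within the interval of the share, and 17 did not. With peak pairs merged within 40 bp in place of final locations, Runx1 had 36 GATA1 and 45 TAL1, Runx2 3 TAL1, Runx3 1 TAL1, and Cbfb 5 GATA1 and 1 TAL1. By the closest start site, Runx1 had 38 TAL1 locations in place of 19. In the MultiGPS lists Runx2 had 1 TAL1 and Cbfb 2 GATA1 locations. The Runx3 GATA1 count was 0 in the body alone and 0 with 10 kb on either side, and with 100 kb Runx3 had 2 GATA1 and 4 TAL1 locations and Cbfb 2 GATA1. At under 20 bp, cooccupancy at Runx1 fell from 61.5 to 30.8% of GATA1 locations, beside 22.0% of all. For TAL1 it fell from 47.4 to 21.1% at under 20 bp, beside 15.6% of all. At under 100 bp it was 73.7% of the Runx1 TAL1 locations, beside 47.9% of all. These changes follow from the wider or narrower definitions themselves. Runx1 had the most entries of the 4 genes under each alternative run. No paired analysis was possible because the lists pool the libraries, and for the same reason no library could be left out and no other normalization tried. Depth, and with it the calls that a deeper library would add, is unknown from the lists.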
